A study of Sus scrofa with 6 samples.

Results

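The genes described here build or serve the elastic filament and the M-band of the cardiac sarcomere. They are titin (TTN), its Z-disc cap telethonin (TCAP), the myomesins MYOM1, MYOM2 and MYOM3, cardiac myosin binding protein C (MYBPC3), nebulette (NEBL), the titin kinase partner NBR1 and the titin splicing factor RBM20. These 9 genes were looked up by symbol among the 13288 genes of the table. The table lists 6 of them under their symbols (TCAP, MYOM1, MYOM3, MYBPC3, NEBL and NBR1). MYOM2 has no symbol in the table and was found through its gene identifier, which makes 7 genes. No row carries the symbol or the listed identifier of TTN or RBM20, so neither was analysed here by name. RNA was sequenced from ventricular tissue of male Tibetan minipigs, 3 after sham surgery (thoracotomy with no constriction) and 3 after descending aortic constriction (DAC), at week 12 after surgery. The groups carried no genetic change, and the ages were not given in the sources used here. Each sample is 1 minipig, and the replicates are numbered from 1 to 3 in sham and from 4 to 6 in DAC. The sources used here say ventricular tissue and do not say from which ventricle the RNA came.

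Titin is a giant elastic protein that runs from the Z-disc to the M-band and sets much of the passive stiffness of heart muscle. Telethonin caps its end at the Z-disc, and the myomesins cross-link titin and the myosin filaments at the M-band. Cardiac myosin binding protein C sits on the thick filament and tunes the access of myosin heads to actin. RBM20 removes exons of the titin spring region, so that less RBM20 gives longer and more compliant titin.

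Levels are in FPKM, fragments scaled by transcript length and by the mapped fragments of a sample, so they may be compared between genes. Read depth is not known, and the spread between minipigs is the only error given. Summed over all genes, a sample held between 281377 and 308771 FPKM. Mitochondrially encoded genes held from 24.0% to 25.3% of that sum in the sham samples, 27.1% to 27.2% in DAC replicates 4 and 6, and 32.8% in DAC replicate 5. Of 14 markers fixed for cardiomyocytes, 12 are listed (MYH6 and PLN are not), and their summed FPKM was between 16498 and 17588 in the sham samples and between 15952 and 18808 in the DAC samples, with RYR2 called lower and no other marker called. Of 10 skeletal muscle markers, 8 are not listed, MYH1, MYH2 and MYH4 among them, and of the others MYBPC2 stayed at or below 0.944 FPKM while ACTA1, also active in heart muscle, was between 1518 and 2405 FPKM. Of 8 atrial markers, MYL7, NPPA, BMP10 and MYBPHL are not listed. The summed FPKM of the other 4 atrial markers was 101 to 133 in sham and 119 to 174 in DAC samples, with 1 called higher. Fibroblast markers summed to 482 to 555 FPKM in the sham samples and 688 to 780 FPKM in the DAC samples, with 5 of 8 called higher. Of 8 endothelial markers, 2 were called higher and 2 lower. Of 7 smooth muscle and pericyte markers 1 was called higher, and of 6 tested leukocyte markers 1 was called lower. What part these shifts have in the values below was not tested, except where a ratio to the cardiomyocyte markers is given. In such bulk tissue, fewer cells of a type and less RNA per cell cannot be told apart.

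The 7 genes spanned a wide range of abundance. TCAP was at 1283 FPKM over all 6 samples and ranked 22 by mean FPKM among the 11029 genes tested. MYBPC3 followed at 1036 FPKM (rank 24), and TCAP was higher than MYBPC3 in 6 of 6 samples although their ranges over samples overlapped. MYOM2 had a mean of 252.8 FPKM (rank 103), MYOM1 of 217 FPKM (rank 125) and NEBL of 206 FPKM (rank 131). These genes overlapped in range, and each was higher than the next in 5 of 6 samples, so their order did not exceed the spread between minipigs. MYOM3 had a mean of 98.5 FPKM (rank 318) and NBR1 of 33.0 FPKM (rank 1106). NEBL and MYOM3 did not overlap in range, with a median ratio of 2.03 within samples, and neither did MYBPC3 and MYOM2, with a median ratio of 4.17.

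The comparison of DAC with sham asks whether chronic pressure overload changed the transcripts of this scaffold. None of the 7 genes was called a differentially expressed gene (DEG), which here means an unadjusted P under 0.05 from limma's moderated test on log2(FPKM + 1), whatever the fold change. With gene-wise variances or with sample weights the count at that threshold was also 0. Across all 11029 genes tested, 8.51% were called, 3.25% higher and 5.27% lower in DAC, and the smallest P adjusted by the Benjamini-Hochberg method was 0.106. Of the genes called, 61.9% were lower in DAC, and 44.9% when the table was rescaled without its mitochondrially encoded genes. Among the 7 genes, the smallest unadjusted P was 0.078 and the adjusted P was between 0.608 and 0.875. In none of them did the DAC samples lie wholly on one side of the sham samples, against 14.9% of all genes tested. The mean was lower in DAC for 6 of the 7 and higher for NEBL, and their median log2 fold change was -0.094, beside -0.016 for all genes tested. After quantile normalization 5 were lower and 2 higher, with MYOM1 at 0.037. Each fold change is the DAC mean minus the sham mean of log2(FPKM + 1). Standard errors of the 7 genes ran from 0.11 to 0.26, beside a median of 0.14 for all genes tested.

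**Figure D1:**
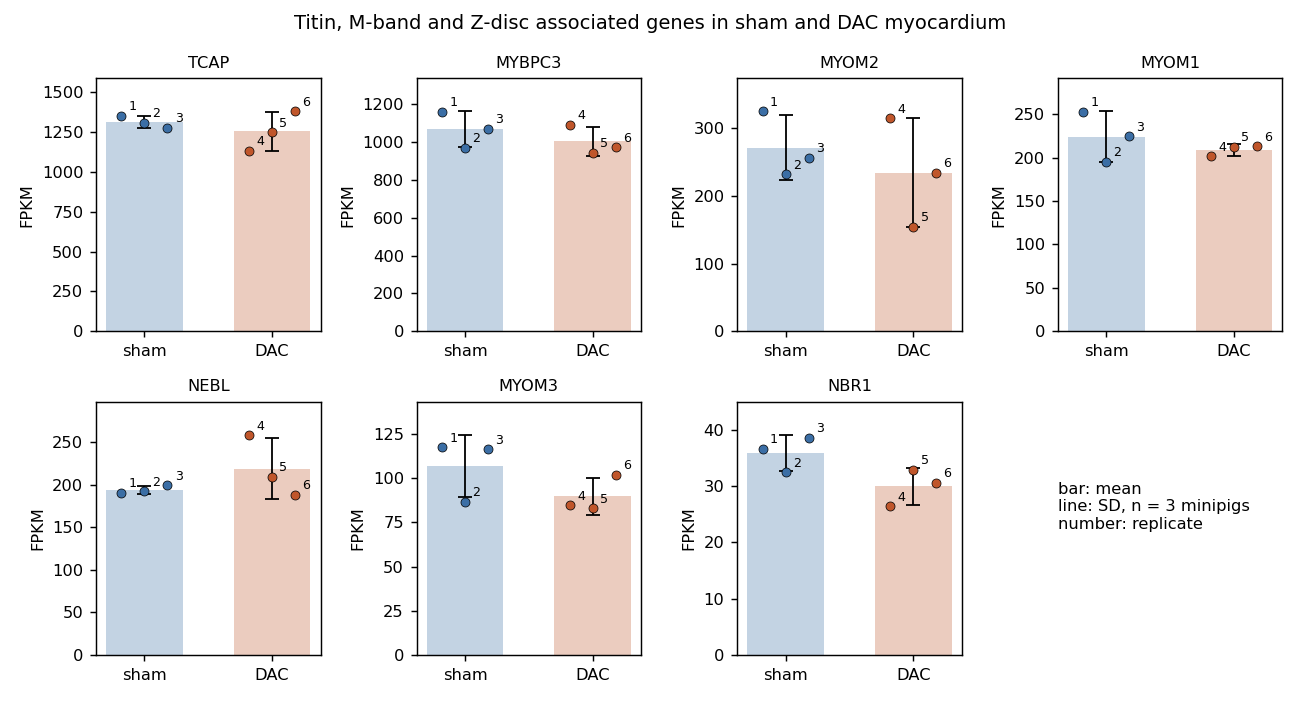
FPKM of the 7 listed genes in each minipig (points, with the replicate number), with the mean (bar) and SD (line, n = 3) of the sham and DAC groups. The groups overlap in every panel; MYOM2 spreads from 154 to 315 FPKM within DAC.

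At the M-band, MYOM1 (ENSSSCG00000003693, chromosome 6 from 103451343 to 103597324), the myomesin found in all striated muscle, was at 253, 195 and 225 FPKM in sham replicates 1 to 3 and at 201, 212 and 213 FPKM in DAC replicates 4 to 6. All DAC values fell inside the sham range. The means were 224 ± 28.9 FPKM (SD, n = 3) in sham and 209 ± 6.65 FPKM (SD, n = 3) in DAC. MYOM1 thus had a log2 fold change of -0.094, with a standard error of 0.12 and a 95% interval from -0.38 to 0.19. On the linear scale of FPKM + 1, that interval runs from 0.769 to 1.14 times the sham level.

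MYOM2 (ENSSSCG00000015747, chromosome 15 from 33496988 to 33606928), the M-protein of fast and adult cardiac muscle, was at 325, 232 and 256 FPKM in sham replicates 1 to 3 and at 315, 154 and 234 FPKM in DAC replicates 4 to 6. DAC replicate 4 was close to the highest sham sample, and DAC replicate 5, the sample with the highest mitochondrial share, was the lowest of all. Its coefficient of variation within DAC was 34.3%, larger than in 88.3% of the genes tested, and 17.7% within sham. The log2 fold change of MYOM2 was -0.25, with a standard error of 0.26 and a 95% interval from -0.87 to 0.36. Without DAC replicate 5 it was 0.017.

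MYOM3 (ENSSSCG00000036534, chromosome 6 from 81799570 to 81860046), a myomesin known mainly from skeletal muscle, was at 118, 86.8 and 117 FPKM in sham replicates 1 to 3 and at 84.7, 83.1 and 102 FPKM in DAC replicates 4 to 6. Sham replicate 2 lay among the DAC samples. The means were 107 ± 17.5 FPKM (SD, n = 3) and 89.9 ± 10.5 FPKM (SD, n = 3). MYOM3 had a log2 fold change of -0.24, with a 95% interval from -0.61 to 0.12 and an adjusted P of 0.684 from limma. Without sham replicate 2 it was -0.38 with an unadjusted P of 0.031, and without sham replicate 1 it was -0.17 (unadjusted P = 0.39 from limma).

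The balance between the myomesins was examined as ratios within each sample. MYOM1 over MYOM2 was 0.778, 0.840 and 0.878 in the sham samples and 0.639, 1.38 and 0.911 in the DAC samples. DAC replicate 4 had the lowest and DAC replicate 5 the highest of these ratios. The log2 ratio differed by 0.16 between the groups (exact two-sided permutation P = 0.7, adjusted P = 0.7 over 2 ratios). MYOM1 over MYOM3 was 2.15, 2.25 and 1.93 in sham and 2.38, 2.56 and 2.09 in DAC, a difference of 0.15 in log2 (exact two-sided permutation P = 0.3, adjusted P = 0.6). With 3 minipigs against 3, such a P cannot go below 0.1.

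At the Z-disc, TCAP (ENSSSCG00000017500, chromosome 12 from 22651666 to 22653453), the telethonin that joins the ends of titin molecules, was at 1352, 1308 and 1278 FPKM in sham replicates 1 to 3 and at 1133, 1249 and 1379 FPKM in DAC replicates 4 to 6. The DAC samples reached both below and above all sham samples. The means were 1313 ± 36.9 FPKM (SD, n = 3) and 1254 ± 123 FPKM (SD, n = 3). On the log2 scale TCAP differed by -0.070, with a 95% interval from -0.33 to 0.19.

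NEBL (ENSSSCG00000011090, chromosome 10 from 53604600 to 53958047), whose product nebulette binds actin at the cardiac Z-disc, was at 190, 192 and 199 FPKM in sham replicates 1 to 3 and at 258, 209 and 188 FPKM in DAC replicates 4 to 6. The coefficient of variation of the sham samples was 2.45%, and DAC replicate 4 stood above all others. NEBL had a log2 fold change of 0.16, with a standard error of 0.13 and a 95% interval from -0.15 to 0.48. Of the 7 genes, it alone had a higher mean in DAC before any rescaling.

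On the thick filament, MYBPC3 (ENSSSCG00000013236, chromosome 2 from 15247539 to 15270104) was at 1162, 972 and 1072 FPKM in sham replicates 1 to 3 and at 1094, 945 and 975 FPKM in DAC replicates 4 to 6. The groups overlapped across most of their range. The means were 1068 ± 94.97 FPKM (SD, n = 3) and 1005 ± 78.6 FPKM (SD, n = 3). On the log2 scale MYBPC3 differed by -0.088, with a 95% interval from -0.36 to 0.18.

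NBR1 (ENSSSCG00000030211, chromosome 12 from 19755737 to 19788952), an autophagy receptor that binds the kinase domain of titin, was at 36.6, 32.5 and 38.6 FPKM in sham replicates 1 to 3 and at 26.5, 32.9 and 30.6 FPKM in DAC replicates 4 to 6. Only DAC replicate 5 lay above the lowest sham sample. The means were 35.9 ± 3.16 FPKM (SD, n = 3) and 30.0 ± 3.27 FPKM (SD, n = 3). For NBR1 the log2 fold change was -0.25, with a standard error of 0.12, an unadjusted P of 0.078, an adjusted P of 0.608 from limma and a 95% interval from -0.54 to 0.037. Without DAC replicate 5 it was -0.32 with an unadjusted P of 0.049, and without DAC replicate 4 it was -0.17 (unadjusted P = 0.21 from limma). NBR1 overlaps another listed gene on the opposite strand, which reached at most 1.21 FPKM. TCAP, MYOM1 and MYOM2 each overlap a neighbour on the same strand, at no more than 3.39 FPKM.

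**Figure D2:**
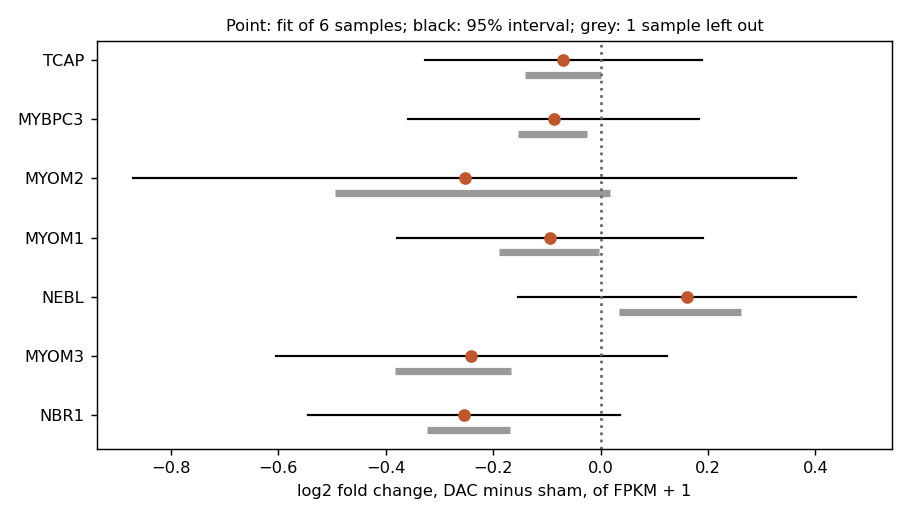
Log2 fold change of each gene, DAC minus sham, on log2(FPKM + 1), with its 95% interval (black) and the range when each sample is left out in turn (grey). Every interval spans 0; the widest, of MYOM2, runs from -0.87 to 0.36.

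Each gene was also set against the summed FPKM of the 12 listed cardiomyocyte markers, which did not differ detectably between the groups (log2 difference 0.040, exact two-sided permutation P = 0.6). NBR1 was 0.222%, 0.184% and 0.223% of that sum in sham replicates 1 to 3 and 0.141%, 0.206% and 0.168% in DAC replicates 4 to 6. The log2 difference of NBR1 was -0.30 (exact two-sided permutation P = 0.2), and DAC replicate 5 again lay among the sham samples. MYOM3 was 0.713%, 0.494% and 0.673% of the marker sum in sham and 0.450%, 0.521% and 0.560% in DAC, a log2 difference of -0.28 (exact two-sided permutation P = 0.3). For the other 5 genes, the log2 difference was between -0.29 for MYOM2 and 0.12 for NEBL, and the exact P was between 0.4 and 0.6. All 7 genes kept the sign of their fold change on this scale.

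**Figure D3:**
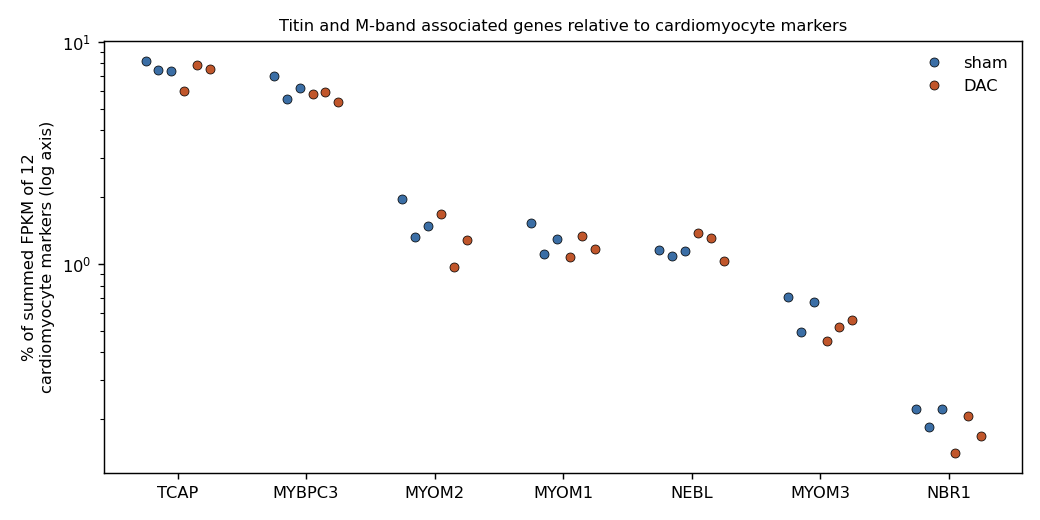
Each gene's FPKM as a percentage of the summed FPKM of 12 cardiomyocyte markers (log axis), 1 point per minipig. Sham and DAC points interleave for every gene; NBR1 runs from 0.184% to 0.223% in sham and from 0.141% to 0.206% in DAC.

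Although no row is named TTN, the RefSeq annotation of Sscrofa11.1 places TTN on chromosome 15 from 84226953 to 84501320, and 4 unnamed protein-coding gene models of the table lie inside that span. These models were chosen by position, after the values had been seen, and are described as models in the span, not as titin. All 4 are on the minus strand. The most abundant, on chromosome 15 from 84226953 to 84230496, has the same lowest coordinate as the TTN span, which for a model on the minus strand is its 3′ end. It was at 709.9, 551.0 and 574 FPKM in sham replicates 1 to 3 and at 517, 723 and 673 FPKM in DAC replicates 4 to 6. DAC samples lay both below and above all sham samples. Its log2 fold change was 0.054, with a 95% interval from -0.33 to 0.44.

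The next, on chromosome 15 from 84399015 to 84416223, was at 644, 570.4 and 621 FPKM in sham and at 530.5, 641 and 638 FPKM in DAC. Its log2 fold change was -0.024, with a 95% interval from -0.30 to 0.25, and the groups overlapped. It turned to 0.00083 after median scaling, to 0.055 after quantile normalization and to 0.020 with mitochondrially encoded genes left out. These models ranked 40 and 43 by mean FPKM. Their ratio, the first over the second, was 1.10, 0.966 and 0.924 in sham and 0.974, 1.13 and 1.05 in DAC (log2 difference 0.078, exact two-sided permutation P = 0.4). The second has its lowest coordinate 172 kb from that of the span, and their ratio did not differ between the groups beyond the spread between minipigs.

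The other models in the TTN span were less abundant. The model from 84423605 to 84426239 was at 125, 103 and 65.8 FPKM in sham and at 99.6, 138 and 99.7 FPKM in DAC, with a log2 fold change of 0.23 and a 95% interval from -0.36 to 0.81. The model from 84406181 to 84411489, which lies within the second model on the same strand, was between 2.95 and 7.99 FPKM in the 6 samples, and its log2 fold change was 0.099, with a 95% interval from -0.64 to 0.84. Since gene-level FPKM holds no exon values, the inclusion of titin spring exons was not measured here.

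RefSeq places RBM20 on chromosome 14 from 121058896 to 121269824. Inside that span the table lists 2 unnamed long non-coding RNAs on the plus strand, which were also chosen by position after the values had been seen. Both were higher in DAC than in sham, with no overlap between the groups. Of all genes tested, 14.9% had groups that did not overlap, in either direction. ENSSSCG00000046256 (chromosome 14 from 121193081 to 121195004) was at 2.03, 3.20 and 1.99 FPKM in sham replicates 1 to 3 and at 8.02, 4.62 and 5.02 FPKM in DAC replicates 4 to 6. Every DAC sample exceeded every sham sample, and DAC replicate 4 was the highest. Its log2 fold change was 1.001, with a standard error of 0.22, an unadjusted P of 0.0025 and an adjusted P of 0.424 from limma. Leaving out any 1 sample gave 0.79 to 1.16, with an unadjusted P of at most 0.011. With gene-wise variances in all 6 samples the unadjusted P was 0.020. This model did not pass the 5 FPKM minimum, so it was not tested under that setting.

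ENSSSCG00000047983 (chromosome 14 from 121116743 to 121124063) was at 3.96, 6.18 and 5.46 FPKM in sham replicates 1 to 3 and at 10.8, 6.42 and 7.11 FPKM in DAC replicates 4 to 6. Here DAC replicate 5 was only just above sham replicate 2. It had a log2 fold change of 0.54, with a standard error of 0.22, an unadjusted P of 0.039 and an adjusted P of 0.584 from limma. It lost the call without sham replicate 1 (0.39, unadjusted P = 0.13 from limma), DAC replicate 4 (0.34, unadjusted P = 0.11) or sham replicate 3 (0.58, unadjusted P = 0.064), and in all 6 samples with gene-wise variances (unadjusted P = 0.11). The counting is not stated to use strand, so reads of these RNAs and unspliced reads of RBM20 cannot be told apart.

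**Figure D4:**
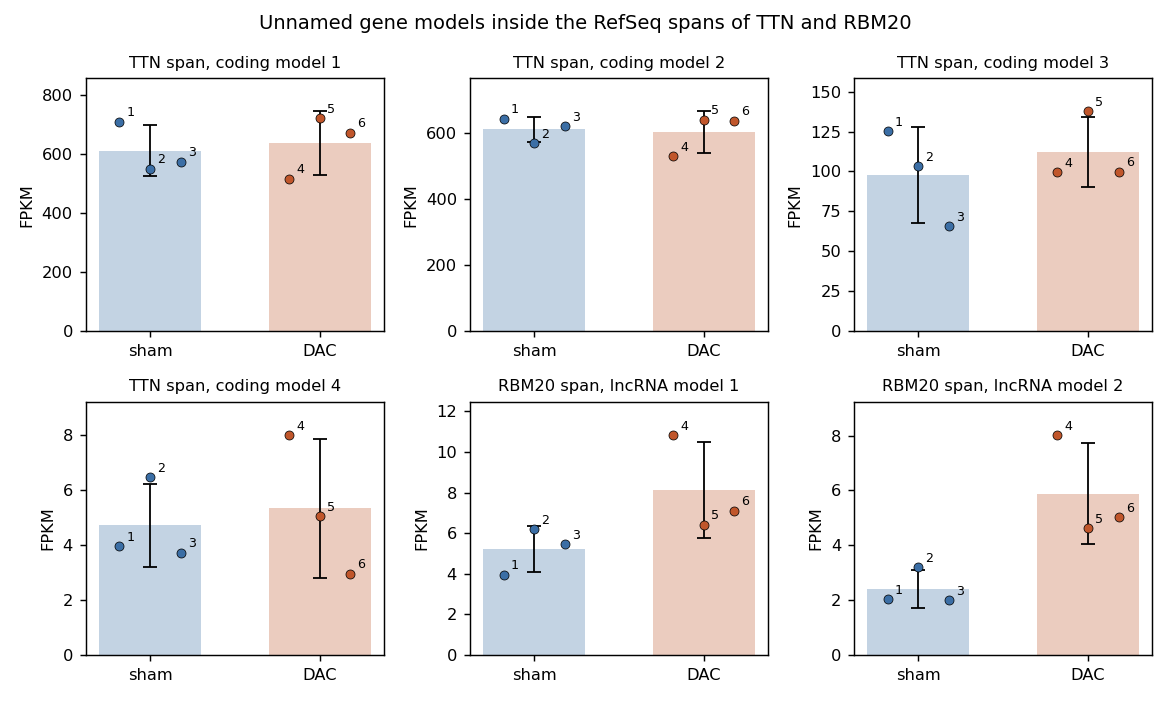
FPKM of the unnamed gene models inside the RefSeq spans of TTN (coding models 1 to 4, in order of abundance) and RBM20 (lncRNA models 1 and 2, in order of position), with mean, SD (n = 3) and replicate numbers. The TTN-span models overlap between the groups. The RBM20-span models do not, at 2.03, 3.20 and 1.99 against 8.02, 4.62 and 5.02 FPKM for lncRNA model 2. Of all genes tested, 14.9% do not overlap.

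The genes around titin were taken from 5 lists of known partners. Over the lists, with each gene counted once, 7 of 68 tested genes were called, 2 higher and 5 lower in DAC. That is 10.3%, close to the 8.51% of all genes tested. The median log2 fold change of the 68 was -0.018, beside -0.016 for all genes tested. Leaving out 1 sample changed the number called, to 1 for sham replicate 1, to 3 for sham replicate 3, to 4 for DAC replicate 6 and to 9 for sham replicate 2.

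Among titin ligands and M-band partners, 0 of 21 tested genes were called higher in DAC and 3 were called lower, SQSTM1 and SMYD2 among them. That is 14.3%, beside 8.51% of all genes tested. The mean was higher in DAC for 7 of the 21 and lower for 14. Their median log2 fold change was -0.10, beside -0.016 for all genes tested.

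SQSTM1, the gene of p62, an autophagy receptor that works with NBR1 at the titin kinase, was at 199.8, 183 and 178 FPKM in sham and at 149, 153 and 154 FPKM in DAC. The groups did not overlap, and the coefficient of variation of the DAC samples was 1.52%. SQSTM1 fell by 0.29 on the log2 scale, with a standard error of 0.096, an unadjusted P of 0.017 and an adjusted P of 0.522 from limma, and it lost the call without sham replicate 1 (-0.25, unadjusted P = 0.075) and after quantile normalization (-0.19, unadjusted P = 0.10). SMYD2, a methyltransferase whose complex binds the spring region of titin, was at 33.6, 19.6 and 30.9 FPKM in sham and at 19.1, 17.5 and 20.1 FPKM in DAC. Sham replicate 2 lay among the DAC samples. Its log2 fold change was -0.51, with an unadjusted P of 0.036, and this P was above 0.05 when any sample other than sham replicate 2 was left out, and 0.097 with gene-wise variances.

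Among 8 kinases and phosphatases of the titin spring, 0 were called by limma, and the mean was lower in DAC for all 8. It was lower for 6 with mitochondrially encoded genes left out and for 7 after median scaling or quantile normalization. Over all genes tested, the mean was lower in DAC for 5884 of 11029. The median log2 fold change of the 8 was -0.083, beside -0.016 for all genes tested. No gene of the 8 passed the threshold with any sample left out. MAPK3, which encodes ERK1, was at 23.3, 24.9 and 29.9 FPKM in sham and at 19.9, 23.1 and 22.5 FPKM in DAC, with an unadjusted P of 0.10 although the groups did not overlap. CAMK2D had a log2 fold change of -0.13 and PRKG1 of -0.096, and neither passed the test.

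Among 18 transcripts spliced by RBM20, 1 was called higher in DAC (LMO7) and 2 were called lower, RYR2 among them. That is 16.7%, beside 8.51% of all genes tested. The mean was higher in DAC for 10 of the 18 and lower for 8. Their median log2 fold change was 0.026, beside -0.016 for all genes tested. LMO7, which encodes a LIM domain protein of cell junctions, was at 54.0, 64.0 and 54.9 FPKM in sham and at 64.5, 71.5 and 75.7 FPKM in DAC, with a log2 fold change of 0.29 and an unadjusted P of 0.042. The LMO7 groups did not overlap, and the P rose to between 0.084 and 0.13 without sham replicate 1 or 3 or DAC replicate 5 or 6. RYR2, the calcium release channel of the sarcoplasmic reticulum, was at 424, 293 and 380 FPKM in sham and at 308, 234 and 279 FPKM in DAC. The RYR2 groups overlapped at sham replicate 2, and its log2 fold change was -0.41 with an unadjusted P of 0.046, or 0.082 to 0.16 without sham replicate 1 or 3 or DAC replicate 5 or 6. RYR2 also lost the call with gene-wise variances (unadjusted P = 0.10 from limma), after quantile normalization (-0.29, unadjusted P = 0.16) and without mitochondrially encoded genes (-0.37, unadjusted P = 0.068). These values are totals over isoforms and say nothing of splicing.

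Among 22 muscle splicing regulators, 1 was called higher in DAC and 1 was called lower. That is 9.09%, beside 8.51% of all genes tested. The mean was higher in DAC for 16 of the 22 and lower for 6, and for 5145 of all 11029 genes tested it was higher. Their median log2 fold change was 0.033, beside -0.016 for all genes tested. After quantile normalization, 18 of the 22 were higher, with a median of 0.082 beside 0.0047. With mitochondrially encoded genes left out, 18 were higher, with a median of 0.074 beside 0.020. SRSF10, a splicing factor of the SR family, was at 4.84, 6.86 and 5.75 FPKM in sham and at 10.2, 8.04 and 7.61 FPKM in DAC, a log2 fold change of 0.50 with an unadjusted P of 0.015. CLK3, a kinase of SR proteins, was at 3.94, 4.25 and 4.32 FPKM in sham and at 2.67, 3.54 and 2.94 FPKM in DAC, a log2 fold change of -0.36 with an unadjusted P of 0.018. The groups did not overlap for SRSF10 or CLK3. The P was 0.053 for SRSF10 without sham replicate 1, and between 0.050 and 0.057 for CLK3 without sham replicate 2 or 3 or DAC replicate 4. RBFOX1, a splicing factor of muscle and brain, had a log2 fold change of -0.37. It did not pass the test (unadjusted P = 0.069 from limma). The fold change was -0.54 without sham replicate 2 (unadjusted P = 0.0066 from limma) and -0.23 without sham replicate 1 (unadjusted P = 0.22). RBM24 and CELF2 are not listed.

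Of 8 relatives of the genes, NEB, NRAP and LASP1 were tested, and 0 were called by limma. NEB, the nebulin of skeletal muscle, was low in all 6 samples, from 0.531 FPKM in DAC replicate 5 to 8.21 FPKM in sham replicate 3. Its log2 fold change was -0.92, the lowest of the 68 list genes, with a 95% interval from -2.12 to 0.27 and an unadjusted P of 0.11. Without DAC replicate 6 it was -1.36 with an unadjusted P of 0.025, and without DAC replicate 5 it was -0.37 (unadjusted P = 0.33 from limma). NRAP, a nebulin relative of the intercalated disc, had a log2 fold change of 0.069, and LASP1 of -0.018, which turned to 0.0044 after median scaling and to 0.012 after quantile normalization.

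**Figure D5:**
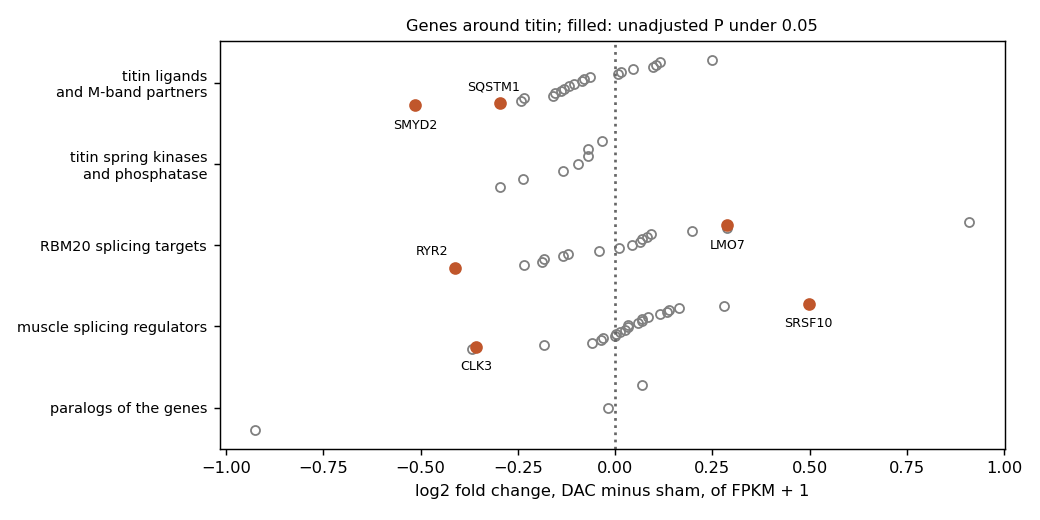
Log2 fold change, DAC minus sham, on log2(FPKM + 1), of the genes reported here from 5 lists around titin, with filled, named points for an unadjusted P under 0.05. The named genes lie on both sides of 0, from SMYD2 at -0.51 to SRSF10 at 0.50.

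The tested genes whose log2(FPKM + 1) followed MYBPC3 most closely over the 6 samples were SLX9, ARHGAP19 and AREL1, with Pearson's r from 0.986 to 0.992. For MYOM2 they were CCDC24, NDOR1 and RCBTB1, with r from 0.983 to 0.995. These are descriptions over 6 samples, in which 105 genes reached an r of 0.9 with MYBPC3 and 141 with MYOM2.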

How the data were processed

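The authors deposited one table of FPKM with a column for each of 6 minipigs, none pooled. Library preparation used a NEBNext Ultra RNA kit, with paired-end sequencing on Illumina HiSeq. The submitters' processing notes name HISAT2 and susScr11 (Sscrofa11.1), and the quantifier and its handling of shared reads are not given in the sources used here. The highest sample of every gene has at least 0.500 FPKM. Depth is unknown. Where the table gave no symbol, 520 genes took one from a table of gene identifiers. Of 10132 symbols placed on a chromosome here and in RefSeq, 99.95% lay at an overlapping position.

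The 11029 genes that reached 1 FPKM in 3 or more of the 6 samples were compared as log2(FPKM + 1) by limma 3.58.1 in R 4.3.3, with a variance trend and Benjamini-Hochberg adjustment over all of them. DEGs have an unadjusted P under 0.05, as in the study's methods. Ratios were compared by exact two-sided permutation tests (scipy 1.17.1). Figures used matplotlib 3.10.9. The fit was tested on simulated data.

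The genes and lists were chosen with earlier results of these data known. The text names the 7 listed genes and, from each list, every gene called or else the 3 of smallest P, and for MYBPC3 and MYOM2 the 3 genes of highest correlation. Some items are not reported here by name, although the counts include them. Ratios of TCAP and RBM20 to TTN, genes most like TTN or RBM20, and genes with long proteins were planned but not analysed here. Results were recomputed unfiltered, at a 5 FPKM minimum, scaled to the median, by quantile normalization, without mitochondrially encoded genes (the rest rescaled), with 0.1 as pseudocount, with gene-wise variances, with sample weights and leaving out each sample. For the ratios they were 1 FPKM added before the ratio, and TNNT2 alone as reference. For the gene models found by position and the list genes they were added after seeing the data.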

Additional observations from a re-analysis of the deposited data

How the results depend on the processing

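No paired analysis was possible because the groups share no replicate numbers. The number of the 7 genes called was 0 under every alternative that kept all 6 samples, and from 0 to 1 with 1 sample left out (MYOM3 without sham replicate 2, NBR1 without DAC replicate 5). List genes called numbered 7 in all samples, 4 after quantile normalization, 4 with gene-wise variances, and from 1 to 9 with 1 sample left out. Some fold changes that passed no threshold in all 6 samples changed sign. MYOM1 was 0.037 after quantile normalization. The TTN-span model from 84399015 was 0.00083 when scaled to the median, 0.055 under quantile normalization and 0.020 without the mitochondrially encoded genes. LASP1 was 0.0044, 0.012 and 0.022 under the same alternatives and 0.013 with sample weights. With 1 sample left out, the log2 fold change ran from -0.14 to 0.00048 for TCAP, -0.50 to 0.017 for MYOM2, -0.21 to 0.0047 for CAMK2D and -0.13 to 0.071 for LASP1. It ran from -0.043 to 0.20, -0.074 to 0.066, -0.035 to 0.42 and -0.20 to 0.40 for the TTN-span models in order of abundance. The log2 difference of TCAP relative to cardiomyocyte markers ran from -0.18 to 0.0079, and that of MYOM1 over MYOM2 from -0.12 to 0.43. The cause of these shifts was not tested. Of 376 single-gene values under alternatives, 319 kept their direction and side of the threshold, 33 lost the call, 4 gained it and 20 changed sign. Depth is unknown, so counting error is not included in any interval.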
